A study of Mus musculus with 6 samples.

Results

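The unfolded protein response and the integrated stress response were examined through 33 genes, which were found by gene name in an expression table of 15415 genes. All 33 were listed, and all 33 passed the filter that left 9030 genes for testing, a mean of at least 1 FPKM (fragments counted per gene, scaled to gene length and to the counted reads of the library) in 1 of the groups. The genes were 14 chaperones and folding enzymes of the endoplasmic reticulum (ER), 3 genes of ER-associated degradation, the sensors *Ern1*, *Eif2ak3* and *Atf6* with the transcription factor gene *Xbp1*, and 12 genes of the branch that runs through ATF4. RNA was sequenced from peritoneal macrophages (PEMs) of mice in 6 libraries. The 3 knockout libraries are of the genotype LysM-Cre; Tim-4 fl/fl, where the Cre recombinase is expressed from the *Lyz2* gene of myeloid cells and deletes *Timd4*, the gene of Tim-4, a receptor for phosphatidylserine on resident macrophages. The 3 control libraries are Tim-4 fl/fl, and carry the same floxed alleles and no Cre. All mice were male, 6 to 8 weeks old and on a C57BL/6J background, PEMs were collected after an injection of starch solution, and all 6 libraries carry the treatment label lps. The labels do not say whether the libraries of a group came from separate mice, so p-values measure the spread between these libraries.

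When unfolded proteins gather in the ER, 3 sensors in its membrane are activated. IRE1α, the product of *Ern1*, splices the *Xbp1* transcript, ATF6 is cut free to enter the nucleus, and both arms raise the transcription of ER chaperones and of genes that remove misfolded proteins. PERK, the product of *Eif2ak3*, phosphorylates the translation factor eIF2α, which lowers protein synthesis in general but raises translation of ATF4, a transcription factor of amino acid supply and stress genes. Other kinases that respond to amino acid shortage, viral RNA or heme shortage lead to the same ATF4 branch, so that this branch can move without the chaperones. Macrophages draw on both branches when they secrete cytokines and when nutrients are short.

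Between 36170767 and 42217558 reads per library fell on listed genes. *Timd4* measured 0.333, 0.394 and 0.246 FPKM in knockout libraries 1 to 3 and 19.5, 12.0 and 1.19 in control libraries 1 to 3, so it followed the titles by which libraries were grouped, while the genotype tag of the labels has the names exchanged. The log2 fold change of *Timd4* was -2.66 (adjusted p = 0.0715, 0.0436 with the replicate number as a block and 0.0458 with a pseudocount of 0.1), and without control library 3 it was -3.63 (adjusted p = 0.000405). A gene level does not separate exons inside the floxed segment from those outside it. With 1.19 FPKM, control library 3 was close to the knockout libraries for the targeted gene, and results that rest on it are given with and without it. *Lyz2* measured 41.4, 4655.8 and 106 FPKM in knockout libraries 1 to 3 and lay between 7090.2 and 8482.3 in the control libraries, so knockout library 2 stood apart at the locus that carries Cre. The macrophage genes *Adgre1*, *Cd68*, *Csf1r* and *Itgam* were present in every library, but the 8 listed macrophage genes did not move together. *Fcgr1* was higher in the knockout libraries (log2 fold change 2.82, adjusted p = 0.0015), and none of the others passed. Without overlap, *Cd68* was higher (0.62) and *Csf1r* (-0.71), *Cd14* (-0.73) and *Lyz2* were lower, while the groups overlapped in *Adgre1*, *Itgam* and *Mertk*. In a limma fit on log2(FPKM + 1), 7.31% of the tested genes passed an adjusted p of 0.05, 2.57% higher and 4.74% lower in the knockout libraries, and the median log2 fold change of all tested genes was -0.11. These were 232 higher and 428 lower genes, and the split was 342 and 320 once the libraries were rescaled by the median of ratios.

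The chaperone branch sat lower in the knockout libraries for most of its genes, but no gene of it passed the test. The log2 fold change was below 0 in 12 of 14 genes (85.7%, against 63.5% of all tested genes), with a median of -0.40 and a range from -1.16 to 0.41. The knockout and control libraries did not overlap in 8 of the 14 genes (57.1%), all 8 lower in the knockout libraries, where 23.0% of all tested genes were separated in that direction. At an unadjusted p below 0.05, 9 chaperone genes were lower and 1 was higher, against 17.7% and 9.93% of all tested genes, and after adjustment 0 were called by limma and 0 by voom on recovered reads. With the libraries rescaled so that the median of all genes was 0.02, the chaperone median was -0.26. In bulk RNA, fewer cells of a type and less RNA per cell cannot be told apart.

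**Figure D1:**
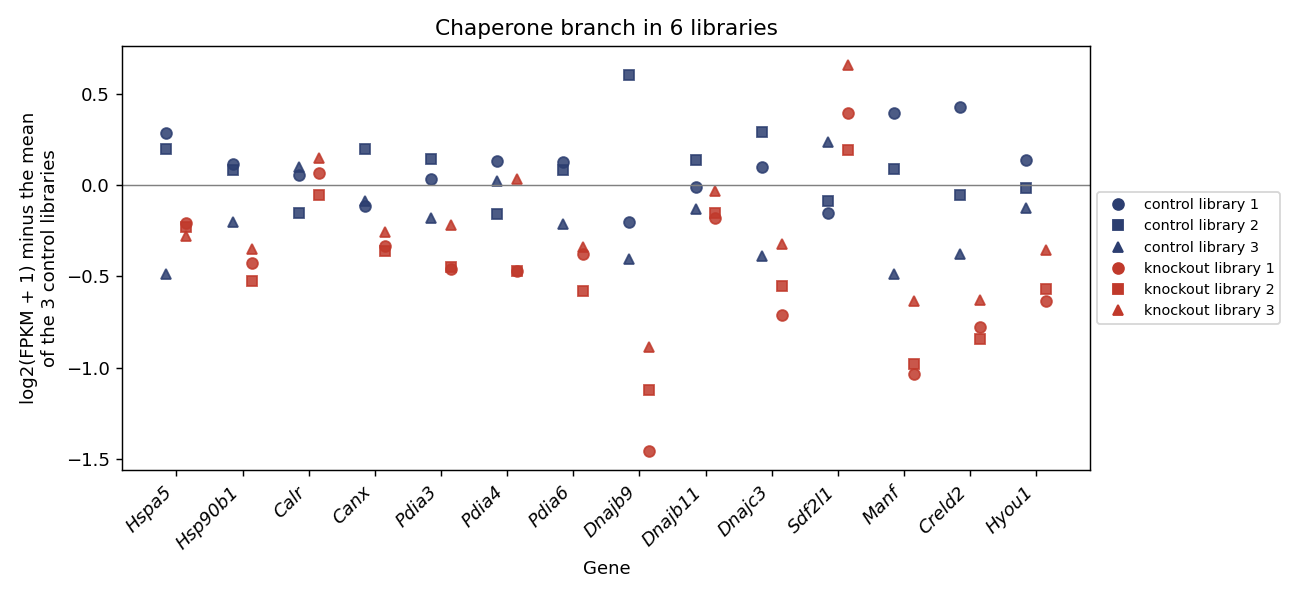
Levels of the 14 chaperone branch genes in each library, as log2(FPKM + 1) minus the mean of the 3 control libraries for that gene (y axis), by gene (x axis). Blue symbols are control libraries and red symbols knockout libraries, with 1 shape for each library number. In 8 genes all red symbols lie below all blue ones, and control library 3 is the lowest control in 10 of the 14 genes.

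Promoters of 7 chaperone genes hold the letters of the ER stress element, CCAAT and CCACG separated by 9 bases, which ATF6 and XBP1 are known to act through. They are printed to show what the branch shares apart from its levels. RefSeq promoters, from 250 bases before to 50 bases after each gene start in the assembly GRCm38.p6, were matched for 30 of the 33 genes (not for *Manf*, *Hyou1* and *Atf6*). On either strand, the element was found in 7 of 12 chaperone genes (58.3%), in 0 of 12 ATF4 branch genes and in 0.137% of all genes with a promoter in the table (0.119% of all 32851 promoters). Both parts of the element are in capitals, and each site is read 5′ to 3′ on the strand given.
*Hspa5*, chr2:34772019-34772048, plus strand: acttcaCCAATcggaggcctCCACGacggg
*Hsp90b1*, chr10:86705633-86705662, minus strand: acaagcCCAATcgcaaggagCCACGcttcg
*Hsp90b1*, chr10:86705527-86705556, plus strand: aactcaCCAATcgtgcctcaCCACGcactc
*Calr*, chr8:84847069-84847098, plus strand: tatgggCCAATgagggtcgaCCACGcgttg
*Canx*, chr11:50325795-50325824, minus strand: tattgaCCAATcaccacgctCCACGaagaa
*Pdia6*, chr12:17266485-17266514, plus strand: cagagaCCAATgaaaggcggCCACGgcgtg
*Dnajc3*, chr14:118937821-118937850, plus strand: ccacaaCCAATcagcgccaaCCACGacccg
*Creld2*, chr15:88819515-88819544, minus strand: tgtggaCCAATtgaggctcgCCACGagaag

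The match is a description of these letters and not of binding. Of the 7 genes with the element, *Hsp90b1*, *Canx*, *Pdia6* and *Creld2* had groups that did not overlap, and *Hspa5*, *Calr* and *Dnajc3* had groups that did.

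*Hspa5* encodes BiP, the main chaperone of the ER lumen, which also holds the sensors inactive. It measured 384.7, 379.5 and 366.0 FPKM in knockout libraries 1 to 3 and 542.6, 510.6 and 316.8 in control libraries 1 to 3. Control libraries 1 and 2 were above all knockout libraries and control library 3 was below them, so the groups overlapped (log2 fold change -0.24, SE 0.21, adjusted p = 0.496). *Hsp90b1*, the gene of the ER form of HSP90, measured 170.7, 159.9 and 180.2 FPKM in knockout libraries 1 to 3 and 249.5, 244.2 and 200.2 in control libraries 1 to 3. Its groups did not overlap, and the difference missed the threshold (log2 fold change -0.43, SE 0.14, adjusted p = 0.0967).

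The fold changes of largest size in the branch belonged to *Dnajb9*, *Manf* and *Creld2*, whose values per library are given because of that size, a choice made after the values were seen. *Dnajb9*, a J-domain cochaperone of BiP that represses IRE1α, measured 9.30, 12.0 and 14.3 FPKM in knockout libraries 1 to 3 and 23.6, 42.1 and 20.4 in control libraries 1 to 3. The groups did not overlap, and the adjusted p was 0.0527 (log2 fold change -1.16, SE 0.28) and 0.0429 with the replicate number as a block, a fit in which 5.57% of all tested genes fell. *Manf*, a secreted factor that is retained in the ER with BiP, was at 64.9, 67.5 and 85.8 FPKM against 176.7, 142.7 and 95.4 (log2 fold change -0.88, SE 0.24, adjusted p = 0.0678). *Creld2*, a disulfide isomerase induced by ER stress, was at 12.1, 11.5 and 13.5 FPKM against 29.2, 20.6 and 16.3 (log2 fold change -0.75, SE 0.21, adjusted p = 0.0731). In both genes control library 1 was the highest and control library 3 the nearest to the knockout libraries, without overlap.

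The other members of the branch had smaller differences. *Hyou1*, a nucleotide exchange factor of BiP, was separate between the groups (log2 fold change -0.52, adjusted p = 0.0639). The protein disulfide isomerase genes *Pdia3* (-0.38), *Pdia4* (-0.30) and *Pdia6* (-0.43) and the lectin chaperone gene *Canx* (-0.32) lay in the same direction, and of these only *Pdia4* had overlapping groups. *Dnajc3*, which inhibits PERK and assists BiP, was at -0.53 with overlapping groups, and *Dnajb11*, another cochaperone, was at -0.12 and changed sign to 0.02 after rescaling. *Calr*, the soluble lectin chaperone, was at 0.05, and reads could be shared with an annotated pseudogene of it. *Sdf2l1*, an ER factor that works with *Dnajb11*, had the opposite direction from most of the branch (log2 fold change 0.41, adjusted p = 0.173, and 0.102 with the replicate number as a block).

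Chaperone calls varied with the libraries used. Control library 3 was the lowest control library in 10 of 14 chaperone genes (71.4%, against 26.6% of all tested genes), and knockout library 3 was the highest knockout library in 13 of 14, against 59.5%. Without control library 3, 8 of the 14 genes fell in the knockout libraries (*Manf*, *Creld2*, *Dnajb9*, *Dnajc3*, *Hsp90b1*, *Hyou1*, *Pdia6* and *Hspa5*, adjusted p from 0.00895 to 0.0423), where 8.93% of all tested genes fell. Without control library 3 and knockout library 2, 1 gene fell, *Manf*, against 4.02% of all tested genes, and the branch median was -0.48. Leaving out any other single library gave 0 calls in the branch, although without knockout library 1, knockout library 2 or control library 2 only 0.33%, 0.699% and 0.0888% of all tested genes were called, and the median stayed between -0.51 and -0.35 over all 6 such fits.

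Markers of other cell types moved with the groups. The summed level of 10 B cell genes lay between 11.4 and 12.6 FPKM in the knockout libraries and was 140.7, 98.5 and 37.5 in control libraries 1 to 3. Of 9 tested genes 8 were past the threshold and lower (88.9%, against 4.74% of all tested genes). Except for *Cd79a*, these 8 passed the filter only through the control group, where they were high, so their calls describe that difference and are no separate support for it. The summed level of 8 plasma cell genes, a cell type rich in ER chaperones, was 29.6 to 34.7 FPKM in the knockout libraries and 39.2 to 53.4 in the control libraries. Of 7 tested genes 4 were lower and *Sdc1* was higher, against 4.74% and 2.57% of all tested genes. Of the 4, *Jchain*, *Mzb1* and *Pou2af1* likewise passed the filter only through the control group. The plasma cell gene *Jchain* was at 0.0338 to 0.192 FPKM against 4.41 to 6.47, and *Mzb1* was at 0.027 to 0.289 against 5.83 to 8.62. The sum of 8 mast cell genes was lower in the knockout libraries as well (9.45 to 17.0 FPKM against 47.1 to 54.6). That of 7 T cell genes (1.19 to 1.89 against 2.81 to 11.1) was lower mostly through *Cd2* (0.342 to 0.603 against 1.81 to 7.88). Of these 7 genes 5 were below 1 FPKM in every library, and *Lck* had overlapping groups (log2 fold change -0.08, adjusted p = 0.825). The sum of 10 mesothelial and fibroblast genes overlapped (13.1 to 37.3 in the knockout libraries, and 2.15, 6.49 and 13.9 in control libraries 1 to 3). The B cell and plasma cell sums were lowest among controls in control library 3, the library in which most chaperones were also lowest. The part of these cells in the chaperone values was not tested.

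*Eif2ak3*, the PERK gene, was the only one of the 33 genes that passed the test, and it fell. A share of 3.03% of the 33 genes was thus called, against 7.31% of all tested genes. It measured 0.899, 1.16 and 1.12 FPKM in knockout libraries 1 to 3 and 3.16, 3.31 and 3.27 in control libraries 1 to 3. The groups did not overlap and the mean of the knockout libraries was 0.327 of the control mean. The log2 fold change was -1.04 (SE 0.12, 95% confidence interval -1.32 to -0.77, adjusted p = 0.00861). Knockout library 1, the lowest for the gene, held 184 of its reads, and control library 1 held 607. *Eif2ak3* was lower under all 13 alternatives (log2 fold change -1.53 to -0.95), with an adjusted p of 0.0557 without knockout library 1, 0.0776 without control library 2 and at most 0.0486 under the others.

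The other sensors did not pass. *Ern1* measured 4.70, 4.54 and 7.07 FPKM in knockout libraries 1 to 3 and 2.57, 4.79 and 8.28 in control libraries 1 to 3, a control range that held every knockout value (log2 fold change 0.14, adjusted p = 0.824). *Atf6* was at 7.59, 9.66 and 10.1 FPKM against 8.65, 9.18 and 12.0, with overlapping groups (log2 fold change -0.11, adjusted p = 0.702, and 0.02 after rescaling). *Xbp1* was at 34.4, 38.1 and 35.0 FPKM against 57.3, 53.3 and 40.9, with every knockout library below every control library (log2 fold change -0.47, SE 0.16, adjusted p = 0.109). It fell when control library 3 was left out (log2 fold change -0.61, adjusted p = 0.0211). Gene levels do not separate spliced from unspliced *Xbp1*, so the activity of IRE1α was not measured.

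The 3 members of ER-associated degradation had overlapping groups and did not pass the test in limma, where 0 of them had an unadjusted p below 0.05. *Herpud1*, which assembles the ubiquitin ligase complex of the ER membrane, ranged from 15.6 to 38.0 FPKM in the knockout libraries and from 17.3 to 53.3 in the control libraries (log2 fold change -0.45, adjusted p = 0.551). *Sel1l*, the adaptor of that complex, was at 0.26 (adjusted p = 0.454), and *Edem1*, a mannosidase that marks glycoproteins for disposal, at -0.26 (adjusted p = 0.264). Between libraries of the same number, *Herpud1* and *Edem1* were lower in the knockout library each time and *Sel1l* gave both signs. With that number as a block the adjusted p was 0.16, 0.286 and 0.339 for *Herpud1*, *Edem1* and *Sel1l*. The promoters of *Herpud1* and the chaperone gene *Dnajb11* hold ATTGG and CCACG separated by 1 base, a shorter ER stress element found in 0.0365% of all promoters, shown with both parts in capitals.
*Herpud1*, chr8:94386371-94386393, plus strand: gcgctgATTGGgCCACGttggac
*Dnajb11*, chr16:22857846-22857868, plus strand: gcggcgATTGGcCCACGcctggc

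The ATF4 branch showed no difference between the groups beyond the spread between libraries. In limma 0 of 12 genes passed the threshold and 0 had an unadjusted p below 0.05, against 27.6% of all tested genes, and voom called 0. The groups overlapped in 12 of 12 genes, where 34.1% of all tested genes had groups that did not. The median log2 fold change was 0.04, with a range from -0.45 to 0.62. Its sign rested on single libraries, since it went from -0.32 without control library 1 to 0.47 without control library 3, and it was 0.67 without control library 3 and knockout library 2 and 0.18 after rescaling.

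**Figure D2:**
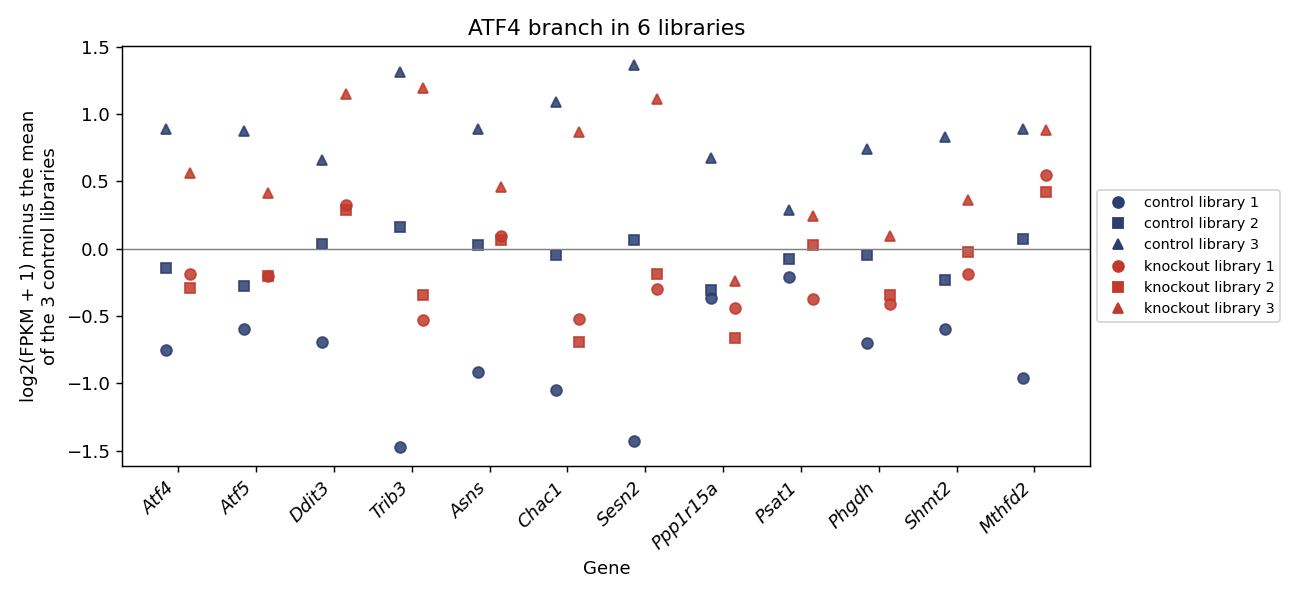
Levels of the 12 ATF4 branch genes in each library, as log2(FPKM + 1) minus the mean of the 3 control libraries for that gene (y axis), by gene (x axis). Blue symbols are control libraries and red symbols knockout libraries, with 1 shape for each library number. In 12 of 12 genes control library 1 is the lowest and control library 3 the highest of the controls, and knockout library 3 is the highest of the knockouts.

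The spread within the control group was wide and ran the same way in every gene of the branch. Control library 1 was the lowest and control library 3 the highest control in 12 of 12 genes, an order that 34.5% of all tested genes had, and together with knockout library 3 as the highest knockout it held in 12 of 12, against 24.2%. Control library 3 exceeded control library 1 by 1.42-fold to 9.73-fold, with a median of 3.25-fold, where the median was 1.15 over all tested genes and 0.844 over the chaperones. The range among the controls on the log2(FPKM + 1) scale had a median of 1.56 in the ATF4 branch, 0.33 in the chaperone branch and 0.43 over all tested genes. It was above 1 in 11 of 12 ATF4 branch genes, against 11.5% of all tested genes. The median SE of the log2 fold change was accordingly 0.40 in the branch and 0.16 over all tested genes.

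*Atf4* itself measured 163.3, 151.3 and 274.5 FPKM in knockout libraries 1 to 3 and 110.2, 168.2 and 346.2 in control libraries 1 to 3. All knockout libraries lay within the range of the control libraries (log2 fold change 0.03, adjusted p = 0.975). ATF4 is controlled mainly at translation, which RNA levels do not show. *Ddit3*, the gene of the stress factor CHOP, was at 4.84, 4.71 and 9.38 FPKM against 1.89, 3.78 and 6.37, with knockout library 3 the highest of all libraries and the groups overlapping (log2 fold change 0.59, adjusted p = 0.342). Between libraries of the same number, *Ddit3* was higher in the knockout library each time and *Ppp1r15a* was lower each time, while the other genes of the branch gave both signs. The limma fit with that number as a block gave an adjusted p of 0.0936 for *Ddit3* and 0.181 for *Ppp1r15a*. That libraries of the same number form pairs is not established. *Trib3*, a pseudokinase that restrains ATF4 and CHOP, was at 6.15, 7.13 and 22.6 FPKM against 2.71, 10.5 and 24.6. Number 3 was the highest library of both groups, and the interval of the *Trib3* difference ran from -1.61 to 1.83 on the log2 scale (log2 fold change 0.11, adjusted p = 0.938).

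*Asns*, which makes asparagine, measured 77.4, 76.1 and 100.4 FPKM in knockout libraries 1 to 3 and 38.0, 74.0 and 135.4 in control libraries 1 to 3 (log2 fold change 0.21, adjusted p = 0.772). *Chac1*, an enzyme that degrades glutathione, was at 2.81, 2.40 and 9.0 FPKM against 1.65, 4.32 and 10.7 (log2 fold change -0.12, adjusted p = 0.916). *Ppp1r15a* encodes GADD34, which directs dephosphorylation of eIF2α, and was at 73.6, 63.1 and 84.9 FPKM against 77.7, 81.1 and 160.6 (log2 fold change -0.45, adjusted p = 0.344). In these genes, too, control library 3 was the highest library of all 6. *Ppp1r15a* had the lowest log2 fold change of the branch, and *Mthfd2*, a mitochondrial enzyme of folate metabolism, the highest (0.62, adjusted p = 0.376). The serine synthesis genes *Psat1* (-0.04) and *Phgdh* (-0.22), the mitochondrial serine enzyme gene *Shmt2* (0.05), the related transcription factor gene *Atf5* (0.00) and *Sesn2* (0.21), an inhibitor of the growth kinase complex mTORC1, lay between. The ranking rested on single libraries. Without control library 1, *Ddit3* was highest (0.24) and *Chac1* lowest (-0.64). Over the 13 alternatives *Mthfd2* ran from 0.14 to 1.16 and *Ppp1r15a* from -0.63 to -0.01. Reads of *Phgdh* could be shared with an annotated pseudogene.

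The promoters of *Chac1*, *Trib3* and *Asns*, 3 of 12 ATF4 branch genes (25.0%), hold TGATGNAA, the letters at which ATF4 and C/EBP proteins are known to bind jointly, against 4.51% of all genes with a promoter in the table and 3.97% of all promoters, on either strand. *Herpud1* holds it as well. The sites of the 3 ATF4 branch genes are shown with the fixed letters of the motif in capitals.
*Chac1*, chr2:119351043-119351062, minus strand: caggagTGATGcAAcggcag
*Trib3*, chr2:152344033-152344052, plus strand: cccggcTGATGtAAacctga
*Asns*, chr6:7693219-7693238, minus strand: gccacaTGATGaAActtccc

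The motif TGACGTCA was found in the promoter of *Ppp1r15a* and in 1.79% of all promoters, and TGACGTGG in 0 of 30 members and in 0.676% of all promoters, which says only that these letters are not in the windows searched.

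**Figure D3:**
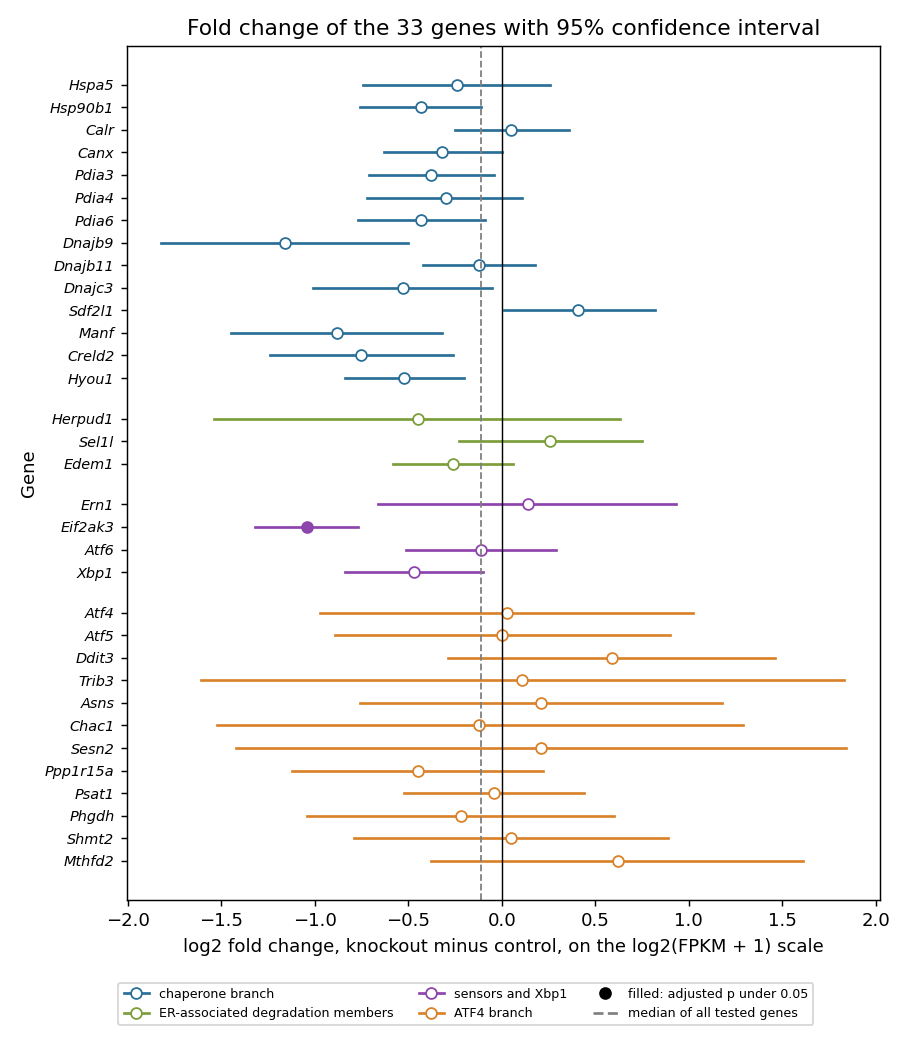
Log2 fold change of the 33 genes, knockout minus control on the log2(FPKM + 1) scale (x axis), by gene (y axis), with bars for the 95% confidence interval from limma. Colours mark the branches, the dashed line is the median of all tested genes at -0.11, and *Eif2ak3* is the only filled point, for an adjusted p below 0.05. The widest intervals are those of *Trib3*, *Sesn2* and *Chac1* in the ATF4 branch, followed by *Herpud1* outside it.

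Further genes of the same pathways were read from lists. Of 23 tested ER folding genes outside the 33, 4 fell (17.4%, against 4.74% of all tested genes) and 0 rose. The median log2 fold change was -0.16, against -0.11 over all tested genes, and the groups were separate and lower in 6 (26.1%), against 23.0%. They were *Dnajc10* (-1.20), an ER disulfide reductase, *Txndc11* (-1.16), a thioredoxin domain protein of ER degradation, *Hspa13* (-1.04), an HSP70 relative, and *Pdia5* (-0.93), a disulfide isomerase. Of 33 tested genes of degradation and translocation into the ER, 3 fell (9.09%) and 0 rose, and 31 were below 0 (93.9%, against 63.5% of all tested genes) with a median of -0.36. Those that fell were *Selenos* (-0.80) and *Vcp* (-0.57), which extract proteins from the ER for degradation, and *Sec61b* (-0.69), a subunit of the translocation channel. In 20 of the 33 (60.6%) the groups did not overlap, lower in the knockout libraries, against 23.0% of all tested genes.

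Among 23 tested sensor and eIF2 pathway genes, *Wfs1*, an ER membrane protein that restrains ATF6, rose by 1.46 on the log2 scale (adjusted p = 0.0196). *Creb3l2*, an ATF6 relative, was at -0.72 and fell (adjusted p = 0.031), but it passed the filter only through the control group (mean 1.59 FPKM, against 0.569 in the knockout libraries). These 2 calls were 8.7% of the list, near the 7.31% of all tested genes, and after rescaling and with voom 0 genes of the list were called lower. Of 25 tested ATF4 targets outside the 33, 3 fell (12.0%, against 4.74% of all tested genes). They were the heme oxygenase gene *Hmox1* (-1.86), the cystine transporter gene *Slc7a11* (-1.62) and *Cth* (-1.04), which makes cysteine. *Cth* passed the filter only through the control group (mean 2.78 FPKM, against 0.848 in the knockout libraries). Of this list 6 fell with the replicate number as a block, where 5.57% of all tested genes fell. The block also gave 2 lower genes in place of 1 among the sensor and eIF2 pathway genes, 3 in place of 4 among the ER folding genes and 2 in place of 3 among those of degradation and translocation. *Hmox1* and *Slc7a11* are also known targets of the oxidative stress factor NRF2. Of 18 aminoacyl-tRNA synthetase genes, *Wars*, which is also induced by interferon γ, rose by 0.81 on the same scale (adjusted p = 0.0252) and the other 17 did not pass (5.56% called, against 7.31% of all tested genes and 2.57% higher), with a list median of 0.24. Without knockout library 1, knockout library 2 or control library 2, 0 genes of these 5 lists passed, and the calls over all genes then numbered 30, 63 and 8. Without control library 3, 6 ER folding genes and 10 genes of degradation and translocation fell and 4 synthetase genes rose, in a fit that called 8.93% of all tested genes lower and 5.87% higher. In that fit 2 ATF4 targets rose and 3 fell, with a list median of 0.16 against -0.11 with all libraries, and 2 sensor and eIF2 pathway genes rose and 1 fell. After rescaling, 2 folding genes and 1 degradation gene fell, against 3.55% of all tested genes, and the medians were -0.01 for folding and -0.22 for degradation and translocation. With no filter on low values, 1 folding gene, 2 genes of degradation and translocation and 1 ATF4 target fell, where 1.98% of all tested genes fell.

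**Figure D4:**
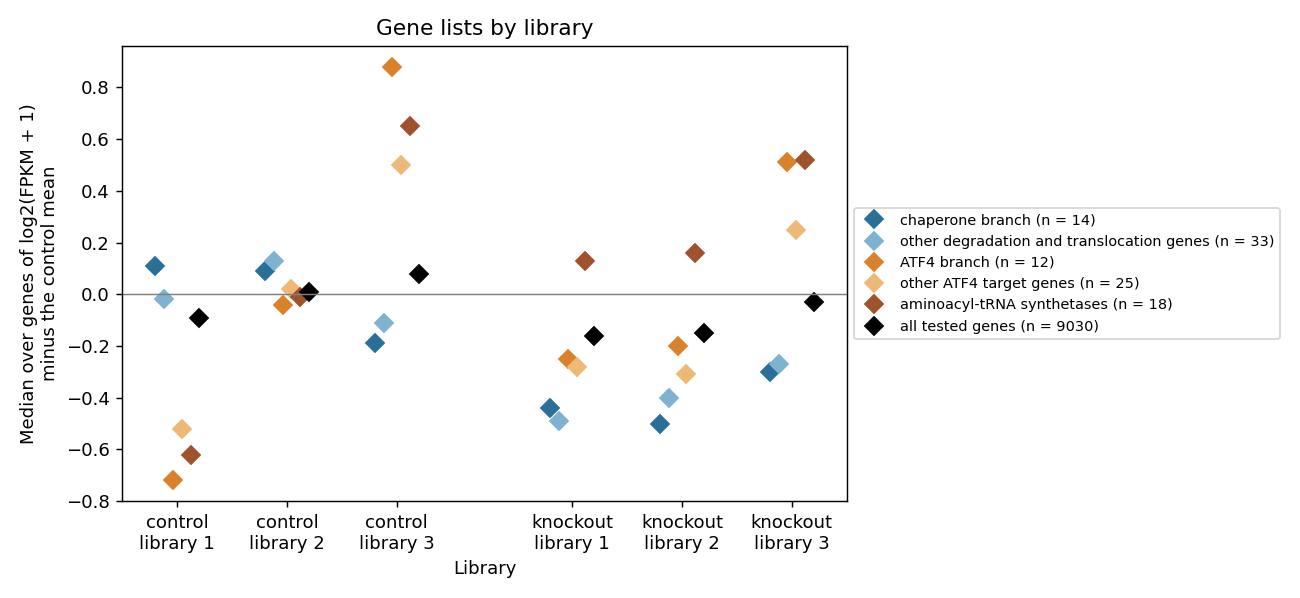
Median over the genes of 6 lists of log2(FPKM + 1) minus the control mean of each gene (y axis), in each library (x axis). Each diamond is a median over genes, and error bars are not drawn because a library gives 1 median per list. The ATF4 branch, the other ATF4 targets and the synthetases are lowest in control library 1 and highest in control library 3, while the chaperone median is at -0.50 to -0.30 in the knockout libraries and at -0.19 to 0.11 in the control libraries.

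Control library 1 was the lowest control and control library 3 the highest in the medians of the ATF4 branch, the other ATF4 targets and the synthetases, but not in that of 5 one-carbon and serine genes outside the 33 (0.11, 0.03 and -0.14 in control libraries 1 to 3, and -0.31, -0.23 and -0.11 in knockout libraries 1 to 3). Medians also rose from control library 1 to 3 in all tested genes (-0.09, 0.01 and 0.08) and the ER-associated degradation members (-0.37, -0.06 and 0.45). The same held for the sensors with *Xbp1* (-0.10, 0.01 and 0.13) and the other sensor and eIF2 genes (-0.08, -0.03 and 0.03). The ATF4 branch median relative to the control mean was -0.72, -0.04 and 0.88 in control libraries 1 to 3 and -0.25, -0.20 and 0.51 in knockout libraries 1 to 3. The other ATF4 targets had -0.52, 0.02 and 0.50 in the control libraries and -0.28, -0.31 and 0.25 in the knockout libraries. The synthetases had -0.62, -0.01 and 0.65 against 0.13, 0.16 and 0.52, with knockout libraries 1 and 2 above control library 2, unlike the ATF4 branch. The chaperone branch ran otherwise, with 0.11, 0.09 and -0.19 in the control libraries and -0.44, -0.50 and -0.30 in the knockout libraries. Its medians were separate between the groups, as those of the 33 degradation and translocation genes were (-0.49 to -0.27 against -0.11 to 0.13). The median of all tested genes was -0.16, -0.15 and -0.03 in knockout libraries 1 to 3 and -0.09, 0.01 and 0.08 in control libraries 1 to 3. List medians were not taken relative to it, so these separations include any shift of whole libraries. Of 5 tested neutrophil genes 2 were lower in the knockout libraries (40.0%, against 4.74% of all tested genes), *S100a8* (log2 fold change -1.58) and *Camp* (-0.64). *Camp* passed the filter only through the control group (mean 1.45 FPKM, against 0.589). The sum of 8 neutrophil genes was 127.5, 71.2 and 201.3 FPKM in knockout libraries 1 to 3. It was highest among the controls in control library 3 (458.7 FPKM, against 194.8 and 282.8 in control libraries 1 and 2). This was mostly through *Mmp8* (19.5, 121.8 and 293.9 in control libraries 1 to 3). *S100a9* had the same order at low levels (0, 2.30 and 5.12 FPKM), while *S100a8*, *Camp* and *Retnlg* were highest in control library 1. The neutrophil genes *Ngp*, *Ltf* and *Cxcr2* were at most at 0.151 FPKM in every library. The part of these cells in the ATF4 branch values was not tested.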

How the data were processed

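RNA sequencing of PEMs gave 6 libraries, 3 knockout and 3 control, grouped by title. FPKM per library and gene were deposited by the authors in 1 table, a unit taken from the values, since the column names give none. The signal columns the authors deposited hold the mean per group of reads divided by size factors. The fold changes, log2 fold changes, p-values and q-values in the authors' deposited table come from a comparison named for DESeq2 and were not used. The labels name the build mm9, and the aligner and counter are not given in the sources used here. No per-sample column was left out (0 unused).

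Reads were recovered from FPKM and group means, with 100% of values whole within 0.05 read. Genes whose mean reached 1 FPKM in a group were tested on log2(FPKM + 1), with a pseudocount of 1, by limma 3.58.1 in R 4.3.3, with Benjamini-Hochberg adjustment over all 9030 genes and a threshold of 0.05. For a single gene, an exact permutation test of 3 against 3 libraries cannot go below p = 0.1, so none was used. Fold changes on this scale understate those of low genes. The limma script was tested on simulated data. Intervals have a level of 95%.

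All 33 members were named, with values per library for those past the threshold and for the sensors and main genes of each branch, and at most 5 genes past the threshold per further list, by size. The members and lists were chosen with earlier results of these data known. Alternatives were no filter, at least 10 reads in every library, a pseudocount of 0.1, rescaling by the median of ratios, limma voom on the recovered reads scaled by the trimmed mean of M values, the replicate number as a block, and leaving out each library. Leaving out knockout library 2 and control library 3 together was added after seeing the data. Deviations from the group means correlated across genes at 0.109, 0.109 and 0.304 between libraries of the same number. Between others the range was -0.332 to 0.291, which overlaps these values, so the check does not establish pairs. Any pairing by number rests on this check alone. The main fit was unpaired, and the replicate number entered only as an alternative. Promoter sequences are those of RefSeq for GRCm38.p6 and were not set against coordinates of the files, which hold none.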

Additional observations from a re-analysis of the deposited data

How the results depend on the processing

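The number of genes past the threshold over all tested genes depended on single libraries, from 8 to 1333 when each library was left out in turn, against 660 with all 6, and so did the count among the chaperones (0 to 8, against 0) and among the degradation genes, sensors and *Xbp1* (0 to 2, against 1). The ATF4 branch had 0 genes past the threshold under every alternative. With the replicate block 1 chaperone gene passed, *Dnajb9*, and the calls over all genes were 352 higher and 503 lower against 232 and 428, and the block changed no other member's call. Without knockout library 2 and control library 3, 1 chaperone gene passed. Rescaling moved the chaperone median to -0.26, and voom called 296 genes higher and 293 lower.

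Of the single genes, the sign of the log2 fold change reversed in 37 of 429 recomputed values and the cause was not tested. After rescaling these were *Atf6* (0.02), *Chac1* (0.01), *Dnajb11* (0.02) and *Psat1* (0.11), and with voom the same genes at 0.02, 0.03, 0.02 and 0.10. Leaving out libraries (each in turn, and knockout library 2 with control library 3) gave both signs in *Atf6* (-0.19 to 0.02), *Chac1* (-0.64 to 0.72), *Psat1* (-0.18 to 0.13), *Ern1* (-0.21 to 0.58), *Atf4* (-0.35 to 0.63), *Atf5* (-0.29 to 0.55), *Trib3* (-0.63 to 0.99), *Sesn2* (-0.50 to 1.09), *Shmt2* (-0.25 to 0.50), *Asns* (-0.25 to 0.72), *Calr* (-0.02 to 0.16), *Phgdh* (-0.57 to 0.21) and *Herpud1* (-0.85 to 0.17).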
